A study of Homo sapiens with 6 samples.

Results

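The 48 mitosis and G2/M genes described here encode the machinery that takes a cell from the end of DNA replication through division. They were chosen by name: every probe set whose gene name, or whose Entrez gene ID, is that of a listed gene was taken, which gave 95 of the 45033 probe sets and 48 of 23596 genes on the array. Of the 48, 43 were found under the listed name and 5 under an older symbol of the same gene ID. CDC2 is the gene now called CDK1, and DLG7 is now DLGAP5. The cells were HEK293, an established line derived from human embryonic kidney, profiled on 6 single-colour NimbleGen arrays in 3 groups of 2. The first group carried an shRNA against SET8 and received Wnt3a conditioned medium, the second carried a control shRNA and received Wnt3a conditioned medium, and the third carried the control shRNA and received control conditioned medium. All cells were transfected for about 40 hours and then kept in the medium for 7 hours, so every group carries an shRNA. Cells with the SET8 shRNA in control medium were not analysed here. The labels do not state whether the 2 arrays of a group come from separate cultures. The p-values therefore cover array-to-array spread, part of which may be technical.

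The entry into mitosis is driven by the kinase CDK1 bound to A- and B-type cyclins. Polo-like and Aurora kinases, kinesin motors and condensins then build the spindle and compact the chromosomes, until the anaphase-promoting complex destroys cyclins and securin and the cell divides. In proliferating lines most of these genes are transcribed in late S phase, G2 and mitosis under the control of B-MYB, FOXM1 and the MuvB complex, which binds a promoter element called the cell cycle homology region (CHR). SET8, now called KMT5A, adds a single methyl group to lysine 20 of histone H4. It is destroyed in S phase and its mark is most abundant in mitosis.

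Of the 48 genes, 47 had at least 1 probe set above the median of its array in at least 2 of the 6 arrays and were tested, with 89 probe sets. CENPE, a kinetochore motor, was the exception. Its brighter probe set read 5.49 and 6.02 with SET8 shRNA, 5.79 and 5.62 with control shRNA in Wnt3a medium, and 6.34 and 5.03 in control medium, on a log2 intensity scale where array medians were 7.63 to 7.79 and a set of random control probes read 4.66 to 4.84. For 42 of the 47, the brightest probe set lay above the median in all 6 arrays. SMC2 passed only through the SET8 shRNA arrays, so its place among the tested genes is not independent of its level there. KMT5A itself read 8.97 and 9.65 with SET8 shRNA, against 11.20 and 10.53 with control shRNA in Wnt3a medium, on its brighter probe set, a log2 fold change of -1.56 (SE 0.34). Marker lists of other cell types also differed between groups: the summed linear intensity of 9 blood cell markers was 1460 and 1447 with SET8 shRNA, against 2640 and 2906 with control shRNA in Wnt3a medium. It was 2444 and 3030 in control medium, and 5 of the 9 were bright enough to test. Of those 5, CD68 differed by -1.07 (SE 0.26), HBA1 by -1.65 (SE 0.38) and HBA2 by -1.12 (SE 0.23) with the SET8 shRNA in Wnt3a medium. CD14 was at 0.02 and CD4 at -0.17, both with overlapping groups. The summed linear intensity of 10 fibroblast markers, 2 of the summed probe sets being bright enough to test, was 5079 and 4701 with SET8 shRNA. It was 7235 and 6329 with control shRNA in Wnt3a medium, and 6387 and 6136 in control medium. COL1A1, at 11.99 to 12.70 on the log2 scale, makes up most of that sum. Between the 2 control shRNA groups, most of the rest of the list did not follow it. By brightest probe set, both Wnt3a arrays with control shRNA lay below both control medium arrays for 6 of the 10 fibroblast markers and above for 1. Of all genes tested, 9.09% lay below and 12.5% above in this way. A tested probe set of COL1A2, which read 5.29 and 6.28 in Wnt3a medium, against 8.28 and 7.87 in control medium, differed by -2.29 (SE 0.40). This probe set and that of COL3A1 passed the filter only through the control medium arrays, so their lower values elsewhere are not independent of the filter. Both SET8 shRNA arrays lay below both control medium arrays for 8 of the 10, COL1A1 among them, against 18.4% of all genes tested. Of the 10 probe sets counted, only 2 were bright enough to test. The blood markers PTPRC, HBB and MS4A1 read at most 6.10 on the log2 scale in any array. The summed linear intensity of 11 markers of HEK293 and epithelial lines, 10 of them tested, was 70530 and 66840 with SET8 shRNA. It was 68600 and 65730 with control shRNA in Wnt3a medium, and 69580 and 69160 in control medium. Single markers went both ways: both SET8 shRNA arrays lay above both control shRNA arrays in Wnt3a medium for 4 of the 11 and below for 3. Of all genes tested, 17.1% lay above and 17.3% below in that comparison. The part of such markers in the results below was not tested. In RNA from whole cultures, fewer cells in G2 or mitosis and less RNA per cell cannot be told apart.

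Most of these genes share promoter letters that the choice by name did not use. In the RefSeq promoter windows of GRCh38.p14, which run from 250 bases before to 50 bases after the gene start, 40 of the 48 genes had an entry. WEE1, AURKA, FOXM1, TTK, BUB3, UBE2C, BIRC5 and TPX2 were not matched. The CHR letters TTTGAA or TTCGAA, on either strand, were found for 31 of the 40 (77.5%), against 14.8% of the 9298 tested genes with an entry and 19.5% of all 27305 genes with an entry. The letters CCAAT, on either strand, the site of the factor NF-Y, were found for 33 (82.5%), against 43.7% of the tested genes. Both were found for 26 (65.0%), against 8.2% of the tested genes. E2F-like letters, that is TTTCGC, the variant TTTGGC, the variant TTTCCC or the variant TTTGCC on either strand, were found for 27 (67.5%), against 52.7%. No motif contains another, but matches of different motifs can share bases. A gene with several start windows counted once if any window held the letters, and 20.0% of the listed genes and 19.0% of all genes had several. For such a gene, CHR and CCAAT counted as both even if they lay in different windows. These matches are descriptions of sequence, not measured binding sites.

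**Figure D1:**
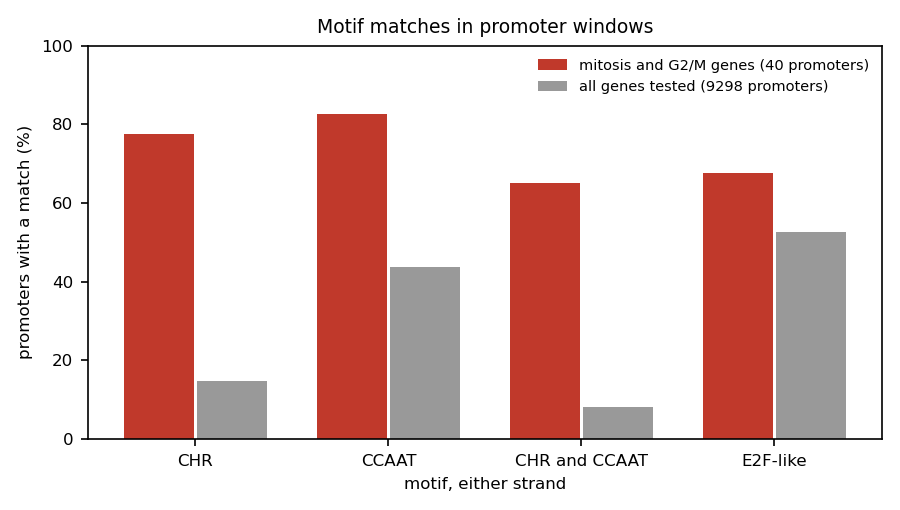
Share of genes with a promoter entry, in percent, with at least 1 match to each motif on either strand in any of their windows. Red bars are the 40 mitosis and G2/M genes with a promoter entry and grey bars the 9298 tested genes with one. CHR and CCAAT were both found, not always in the same window, for 65.0% of the mitosis and G2/M genes and 8.2% of the tested genes.

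Promoters of 4 genes are printed because these genes span the values described below: KIF23 had the highest difference with the SET8 shRNA, CCNA2 the highest among the cyclins, CCNB2 a difference of about 0, and CENPA the lowest. Each is 5′ to 3′ on the strand of the gene, with CHR and CCAAT matches in capitals (CCAAT read on the other strand is ATTGG).
KIF23 (chr15:69414099-69414398, plus strand): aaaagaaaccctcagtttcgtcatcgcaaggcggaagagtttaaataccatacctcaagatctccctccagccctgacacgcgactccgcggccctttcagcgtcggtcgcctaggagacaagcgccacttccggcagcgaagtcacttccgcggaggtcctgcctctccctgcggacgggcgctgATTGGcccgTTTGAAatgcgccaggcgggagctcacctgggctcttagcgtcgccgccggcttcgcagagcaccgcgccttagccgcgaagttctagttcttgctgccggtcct
CCNA2 (chr4:121823834-121824133, minus strand): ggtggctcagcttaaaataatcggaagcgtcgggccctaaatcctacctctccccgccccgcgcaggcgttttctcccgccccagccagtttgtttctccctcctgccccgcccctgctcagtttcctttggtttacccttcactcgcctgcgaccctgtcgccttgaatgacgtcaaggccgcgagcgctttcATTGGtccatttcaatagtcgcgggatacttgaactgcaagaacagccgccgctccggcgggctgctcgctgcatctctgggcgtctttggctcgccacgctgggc
CCNB2 (chr15:59104896-59105195, plus strand): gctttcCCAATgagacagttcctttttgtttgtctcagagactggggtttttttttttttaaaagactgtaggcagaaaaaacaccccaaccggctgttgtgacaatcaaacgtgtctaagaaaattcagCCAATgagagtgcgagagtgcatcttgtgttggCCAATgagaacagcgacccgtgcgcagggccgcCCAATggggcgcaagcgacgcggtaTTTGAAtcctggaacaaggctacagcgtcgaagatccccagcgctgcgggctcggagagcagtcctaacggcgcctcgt
CENPA (chr2:26785806-26786105, plus strand): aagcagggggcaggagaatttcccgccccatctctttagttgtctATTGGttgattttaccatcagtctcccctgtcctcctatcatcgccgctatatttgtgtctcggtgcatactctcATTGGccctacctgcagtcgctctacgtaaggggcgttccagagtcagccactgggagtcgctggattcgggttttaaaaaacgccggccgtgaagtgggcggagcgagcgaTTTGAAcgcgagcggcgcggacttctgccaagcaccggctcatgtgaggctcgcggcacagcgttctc
Counted from the gene start, the first base of the CHR match is at -55 in KIF23, -29 in CCNB2 and -18 in CENPA. KIF23 has 1 CCAAT match, at -64, while CCNB2 has 4 and CENPA has 2. The CCNA2 window holds 1 CCAAT match and no CHR match by these letters. The 31 tested genes with a CHR match had a median log2 fold change of 0.17 with the SET8 shRNA, and the 8 tested genes without had 0.12. The 26 tested genes with both CHR and CCAAT had a median of 0.12, and the 13 without both had 0.20. No test was run on these splits.

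The first comparison asked what the SET8 shRNA does to these genes when both sides are in Wnt3a medium. No mitosis or G2/M gene passed an adjusted p of 0.05 in limma, as none of the 23808 probe sets tested did (0.0% called), with 1705 at an unadjusted p under 0.05. Of the 47 genes, 30 had higher and 17 lower values with the SET8 shRNA, and the median log2 fold change was 0.13, against 0 over all 13073 genes tested. Without SMC2 it was 29 higher and 17 lower, with a median of 0.12. Differences were small for most: 40 of 47 genes (85.1%) lay within 0.5 of 0 on the log2 scale, against 84.1% of all genes. The 7 genes outside that range were KIF23, ECT2, TPX2, CCNA2, KIF14 and SMC2 on the higher side and CENPA on the lower.

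Without adjustment, limma gave a p under 0.05 for 2 of the 47 genes by brightest probe set, KIF23 and TPX2, both higher. That is 4.26% higher and 0.0% lower, against 3.71% higher and 3.69% lower of all genes. In 12 genes (25.5%, or 11 of 46 and 23.9% without SMC2) both SET8 shRNA arrays lay above both control shRNA arrays, against 17.1% of all genes, and in 5 (10.6%) they lay below, against 17.3%. The counts depend on single arrays. Without SET8 shRNA replicate 2, or without the control shRNA replicate 2 in Wnt3a medium, 24 of 47 were higher, with medians of 0.03 and 0. Without SET8 shRNA replicate 1 it was 33, with a median of 0.24, and without control shRNA replicate 1 in Wnt3a medium it was 32, with a median of 0.21.

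**Figure D2:**
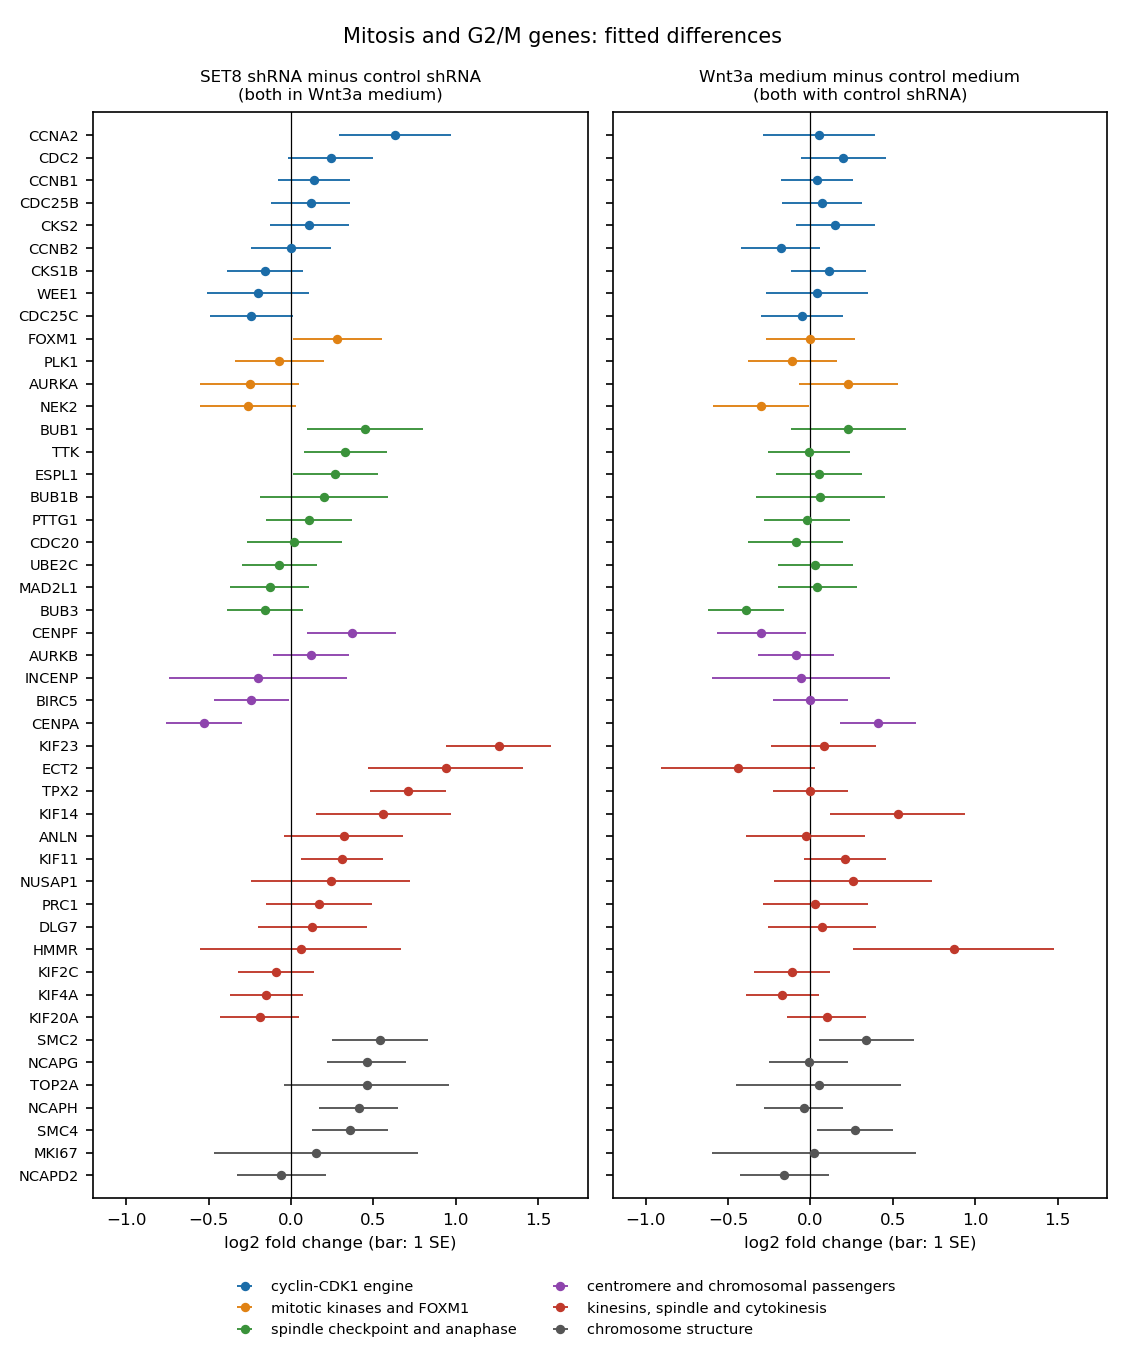
Fitted log2 fold change with 1 SE for the 47 tested genes, by role, for SET8 shRNA minus control shRNA (left) and Wnt3a medium minus control medium (right). KIF23 (1.26), ECT2 (0.94) and TPX2 (0.71) are highest and CENPA (-0.53) lowest in the left panel, and most intervals in both panels include 0.

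Among the 13 genes of the spindle, kinesins and cytokinesis, 10 had higher values with the SET8 shRNA and 3 lower ones, with a median of 0.24. Without SET8 shRNA replicate 2 this was 6 of 13, with a median of -0.03, and without control shRNA replicate 2 in Wnt3a medium 5 of 13, with a median of -0.08. KIF23, the motor of the centralspindlin complex that organises the cleavage site, had the highest value. Its brighter probe set (hg18 chromosome 15, 67493741 to 67527818) read 11.40 and 11.96 with SET8 shRNA, 10.66 and 10.17 with control shRNA in Wnt3a medium, and 10.57 and 10.10 in control medium. Both SET8 shRNA arrays were above all 4 others. The difference was 1.26 (SE 0.32, 95% interval 0.53 to 2.0), or 2.40-fold, with a limma adjusted p of 0.31. Its second probe set read 9.58 and 10.38 with SET8 shRNA, against 9.09 and 8.86 with control shRNA in Wnt3a medium, a difference of 1.0 (SE 0.36), also with no overlap. When each array was left out in turn, the difference of the brighter set stayed between 0.99 and 1.54.

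TPX2, which targets Aurora A to the spindle and activates it, had the smallest unadjusted p after KIF23. Its brighter probe set (hg18 chromosome 20, 29790798 to 29853179) read 11.99 and 12.04 with SET8 shRNA, 11.44 and 11.17 with control shRNA in Wnt3a medium, and 11.37 and 11.24 in control medium. Again both SET8 shRNA arrays were above all 4 others. The difference was 0.71 (SE 0.23, 95% interval 0.17 to 1.25), or 1.64-fold, with a limma adjusted p of 0.49. A further probe set gave 0.77 (SE 0.29), with 11.65 and 12.36 against 11.26 and 11.22. Leaving out each array gave 0.58 to 0.85 for the brighter set. AURKA, the kinase that TPX2 activates, read 11.55 and 12.10 with SET8 shRNA, against 12.29 and 11.86 with control shRNA in Wnt3a medium and 12.03 and 11.67 in control medium, a difference of -0.25 (SE 0.30) with overlapping groups.

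ECT2, the exchange factor for RhoA that centralspindlin recruits, was at 0.94, but its arrays were far apart (SE 0.47): 7.67 and 8.38 with SET8 shRNA, against 7.75 and 6.42 with control shRNA in Wnt3a medium. It is named here after its value was seen. KIF14, a kinesin of the midbody, read 8.95 and 9.44 with SET8 shRNA, against 8.58 and 8.69 with control shRNA in Wnt3a medium, without overlap, and 8.73 and 7.49 in control medium, a difference of 0.56 (SE 0.41). The remaining members of this group lay between -0.19 (KIF20A, which carries the passenger complex to the central spindle) and 0.32 (ANLN, the cleavage furrow scaffold anillin). KIF11, the motor that pushes the spindle poles apart, was at 0.31 and PRC1, which bundles the midzone microtubules, at 0.17. The depolymerase KIF2C was at -0.09 and the chromokinesin KIF4A at -0.15.

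**Figure D3:**
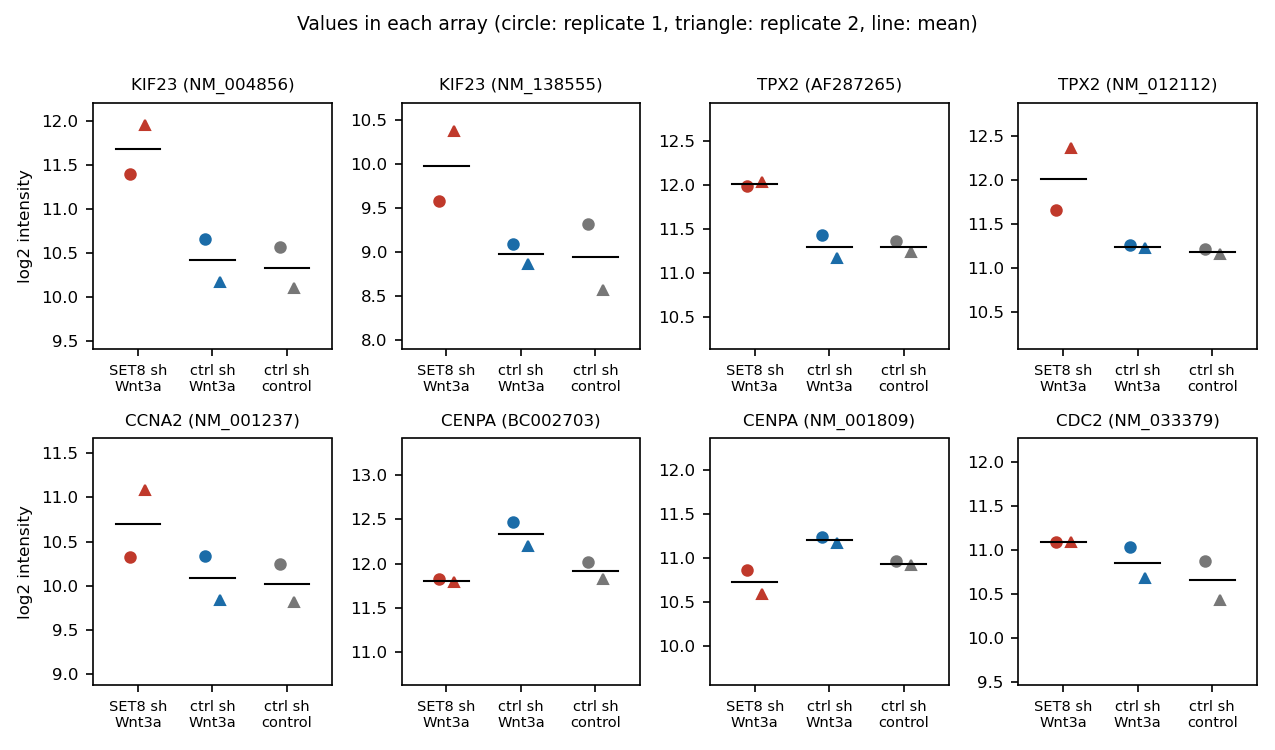
Log2 intensity in each array for 8 probe sets of 5 genes; circles are replicate 1, triangles replicate 2 and lines the group means, with SET8 shRNA in Wnt3a medium in red, control shRNA in Wnt3a medium in blue and control shRNA in control medium in grey. On both probe sets of KIF23 and TPX2 the SET8 shRNA arrays lie above the other 4, and on both of CENPA they lie below the Wnt3a control arrays.

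The 7 genes of chromosome structure had a median of 0.41, with 6 higher and 1 lower. SMC2 is among the higher ones here and in the counts that follow, and passed the filter only through the SET8 shRNA arrays. Its higher value is therefore not independent of the filter. Without SET8 shRNA replicate 2 the count was 4 higher and 3 lower, with a median of 0.22. Without control shRNA replicate 2 in Wnt3a medium it was 5 and 2, also with a median of 0.22. Without SET8 shRNA replicate 1 all 7 were higher, with a median of 0.62. Condensin, the ring complex that compacts mitotic chromosomes, is built on the ATPases SMC2 and SMC4. SMC4 read 8.20 and 8.12 with SET8 shRNA, 7.94 and 7.66 with control shRNA in Wnt3a medium, and 7.49 and 7.57 in control medium. The SET8 difference was 0.36 (SE 0.23), with no overlap. SMC2 read 7.83 and 8.27 with SET8 shRNA, 7.55 and 7.48 with control shRNA in Wnt3a medium, and 7.48 and 6.86 in control medium, a SET8 difference of 0.54 (SE 0.29). The condensin I subunit NCAPG read 9.56 and 9.88, against 9.15 and 9.37 in Wnt3a medium and 9.19 and 9.34 in control medium, a difference of 0.46 (SE 0.24), and NCAPH 12.04 and 12.41, against 11.88 and 11.76, a difference of 0.41 (SE 0.24). The other condensin I subunit listed, NCAPD2, was at -0.06 (SE 0.27) with overlap. By brightest probe set, the smallest limma adjusted p in this group was 0.799, for NCAPG.

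TOP2A, the topoisomerase that untangles sister chromatids, and MKI67, the proliferation marker that coats mitotic chromosomes, had wide intervals. TOP2A read 9.66 and 10.87 with SET8 shRNA, against 10.12 and 9.49 with control shRNA in Wnt3a medium and 10.27 and 9.23 in control medium, a difference of 0.46 with a 95% interval of -0.71 to 1.63. MKI67 read 9.07 and 10.32, against 10.26 and 8.84 in Wnt3a medium and 10.10 and 8.97 in control medium, a difference of 0.15 with an interval of -1.30 to 1.59. In both genes the arrays of a group differed more than the group means.

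The cyclin-CDK1 engine showed 5 higher and 4 lower values among 9 genes, with a median of 0.11. Leaving out SET8 shRNA replicate 1 gave 3 higher and 6 lower, with a median of -0.04. CCNA2, the cyclin of S phase and early mitosis, was the highest. It read 10.32 and 11.09 with SET8 shRNA, against 10.33 and 9.83 with control shRNA in Wnt3a medium, and 10.24 and 9.81 in control medium. The difference was 0.63 (SE 0.34), and SET8 shRNA replicate 1 lay at the level of the control arrays. Without replicate 2 of the SET8 shRNA arrays it was 0.24. CDC2, the catalytic kinase, read 11.09 and 11.10 with SET8 shRNA, against 11.04 and 10.68 with control shRNA in Wnt3a medium and 10.88 and 10.43 in control medium, a difference of 0.24 (SE 0.26), and its other probe sets gave 0.13 and 0.22. CCNB1, its partner at mitotic entry, read 13.33 and 13.28, against 13.20 and 13.12 in Wnt3a medium and 13.03 and 13.22 in control medium, a difference of 0.14 with a 95% interval of -0.38 to 0.67. CCNB2 was at 0 on its brighter probe set.

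The inhibitory kinase WEE1 was at -0.20 (SE 0.31), and the activating phosphatases CDC25B and CDC25C at 0.12 and -0.24. CKS2, a small subunit that docks CDK1 to its substrates, read 12.40 and 12.09 with SET8 shRNA, against 12.25 and 12.00 in Wnt3a medium and 12.01 and 11.95 in control medium, a difference of 0.11 (SE 0.24). Its close relative CKS1B read 13.66 and 13.36, against 13.65 and 13.70 in Wnt3a medium and 13.54 and 13.59 in control medium, a difference of -0.16 (SE 0.23). A dimmer probe set of CKS1B read 8.11 and 7.58, against 8.72 and 9.03. Its difference was -1.03 (SE 0.32), with a limma p of 0.013 unadjusted and 0.45 adjusted. The probe sets of CKS1B thus differ in size of change, and the array cannot say which transcripts they share.

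Among the mitotic kinases and FOXM1, 1 gene was higher and 3 were lower, all within 0.3 of 0. The count was 3 higher and 1 lower without SET8 shRNA replicate 1, and 2 and 2 without control shRNA replicate 1 in Wnt3a medium. FOXM1, a transcription factor of G2/M genes, read 13.76 and 13.90 with SET8 shRNA, against 13.82 and 13.27 with control shRNA in Wnt3a medium and 13.68 and 13.42 in control medium, a difference of 0.28 (SE 0.27), and its 2 further probe sets gave 0.22 and 0.46. PLK1, the kinase that promotes mitotic entry and centrosome maturation, read 13.81 and 14.09, against 14.27 and 13.77 in Wnt3a medium and 14.22 and 14.03 in control medium, a difference of -0.07 (SE 0.27). A second PLK1 probe set gave 0.44, from arrays at 13.54 and 13.59, against 13.96 and 12.29. NEK2, a kinase that separates centrosomes, read 9.22 and 9.10, against 9.19 and 9.65 in Wnt3a medium and 9.44 and 9.99 in control medium, a difference of -0.26 (SE 0.29).

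The spindle checkpoint holds anaphase until all chromosomes are attached, and anaphase then starts through CDC20 and the ubiquitin-conjugating enzyme UBE2C. In this group 6 of 9 genes were higher and 3 lower, with a median of 0.11 and every value by brightest probe set within 0.5 of 0. The checkpoint kinase BUB1 read 10.70 and 11.11 with SET8 shRNA, against 10.80 and 10.12 with control shRNA in Wnt3a medium and 10.59 and 9.87 in control medium, a difference of 0.45 (SE 0.35). TTK, the kinase that starts the checkpoint signal, read 8.42 and 8.85, against 8.39 and 8.23 in Wnt3a medium and 8.25 and 8.38 in control medium, a difference of 0.33 (SE 0.25) without overlap. A dimmer TTK probe set gave 0.73 (SE 0.52) with overlap. BUB3, the adaptor of BUB1, gave opposite signs on its probe sets: -0.16 (SE 0.23) on the brighter, with 11.75 and 11.95 against 12.06 and 11.95, and 0.34 (SE 0.23) on the other, with 11.97 and 12.21 against 11.70 and 11.79. The 8 probe sets of UBE2C spanned -0.28 to 0.13. CDC20 was at 0.02, MAD2L1 at -0.13, BUB1B at 0.20, the securin PTTG1 at 0.11 and the separase ESPL1 at 0.27.

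At the centromere the SET8 shRNA arrays read lower for CENPA, the histone H3 variant that marks centromeres. Its brighter probe set (hg18 chromosome 2, 26862514 to 26877436) read 11.82 and 11.79 with SET8 shRNA, 12.47 and 12.20 with control shRNA in Wnt3a medium, and 12.02 and 11.82 in control medium. The SET8 shRNA arrays lay below both Wnt3a control arrays and close to the control medium arrays. The difference was -0.53 (SE 0.23, 95% interval -1.08 to 0.02), with a limma adjusted p of 0.72. The second probe set, at 10.87 and 10.59 against 11.24 and 11.18, gave -0.48 (SE 0.23). Of the 5 tested genes of this group 2 were higher and 3 lower, with a median of -0.20, and without SET8 shRNA replicate 1 it was 3 and 2, with a median of 0.16. CENPF, a kinetochore protein of G2, was at 0.37 (SE 0.27). Of the chromosomal passengers, which correct attachments and direct cytokinesis, the kinase AURKB was at 0.12 (SE 0.23), BIRC5 (survivin) at -0.24 (SE 0.23) and INCENP at -0.20 (SE 0.54). INCENP read 8.74 and 10.54 in the SET8 shRNA arrays, the widest replicate gap of any of the 47 genes in that group.

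**Figure D4:**
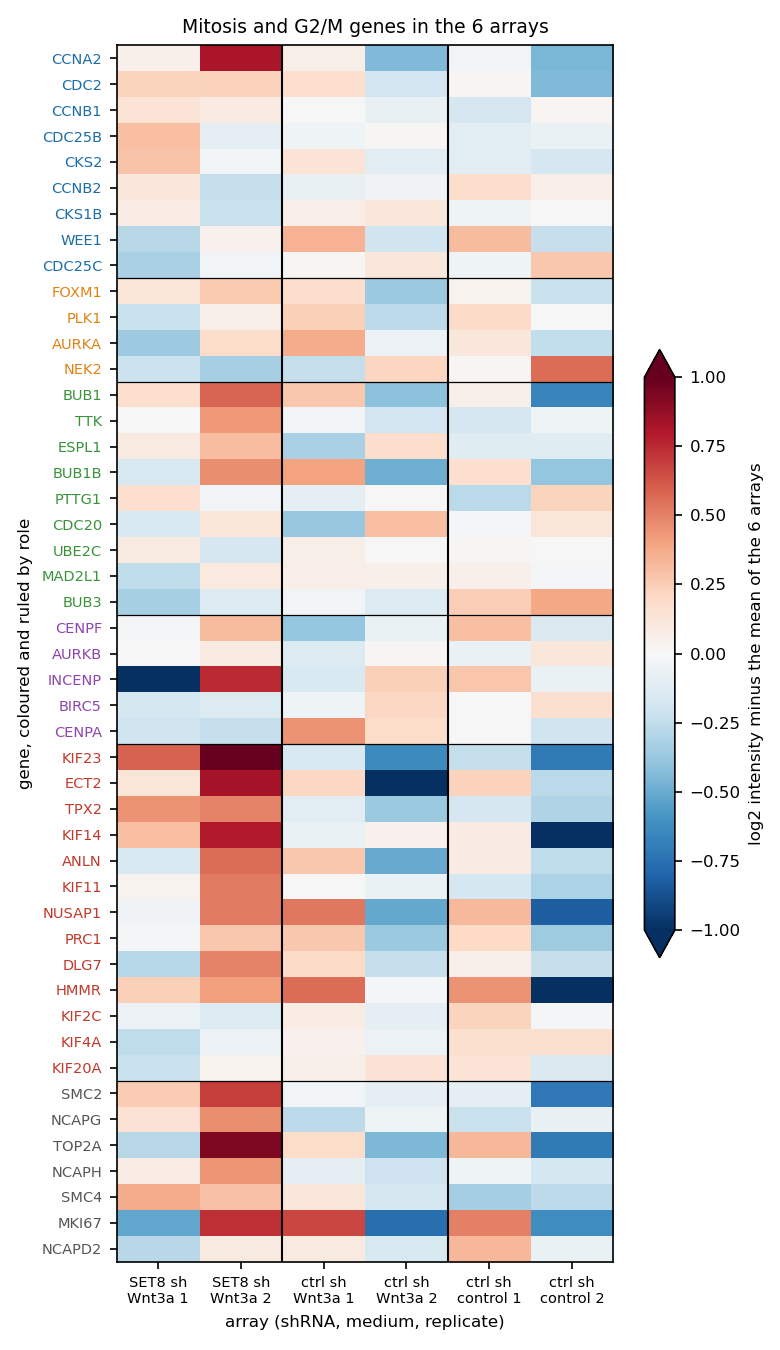
Log2 intensity of the 47 tested genes in the 6 arrays, each gene minus its own mean over the arrays, ruled by role, with colours capped at 1 in either direction. SET8 shRNA replicate 2 is the reddest column and control medium replicate 2 holds many of the bluest cells.

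Many of these genes differed between the arrays of a group in a shared direction. With SET8 shRNA 36 of 47 genes were higher in replicate 2, with a median difference (replicate 1 minus replicate 2) of -0.29, against -0.01 over all genes. With control shRNA 32 of 47 in Wnt3a medium and 33 of 47 in control medium were higher in replicate 1, with medians of 0.16 and 0.20, against -0.03 and 0.01 over all genes. The pattern of replicate 2 higher with SET8 shRNA and replicate 1 higher in both control shRNA groups was shown by 23 of the 47 genes (48.9%), against 24.1% of all genes. MKI67, TOP2A, NUSAP1 and BUB1B were among those that showed it with a gap over 0.5 in every group. They were picked after their values were seen. SEs over the 47 genes had a median of 0.26 and ran up to 0.62, the SE of MKI67. The part of this replicate pattern in the SET8 differences was not tested.

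**Figure D5:**
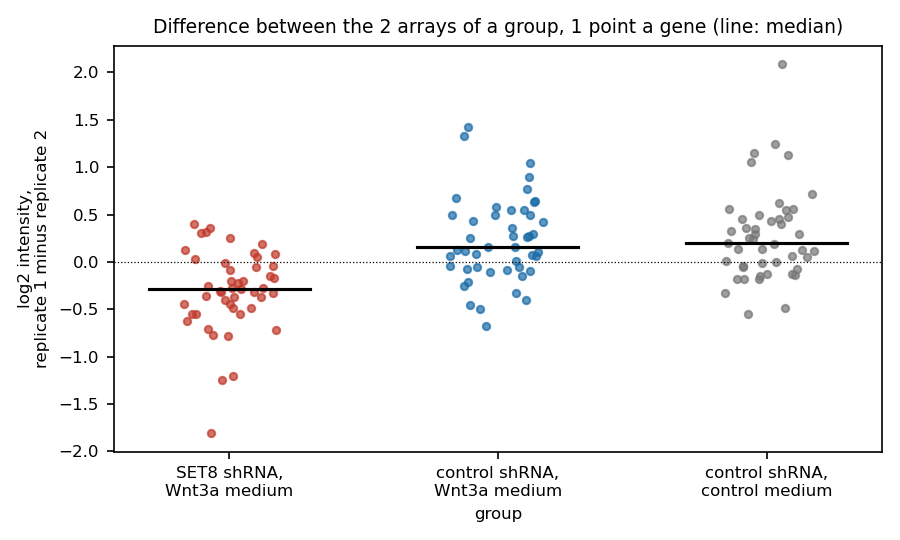
Replicate 1 minus replicate 2 in log2 intensity for each of the 47 tested genes in the 3 groups; the line is the median. The medians are -0.29 with SET8 shRNA, 0.16 with control shRNA in Wnt3a medium and 0.20 in control medium.

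The second comparison asked whether Wnt3a medium changes these genes in cells with the control shRNA. None of the 47 passed, as none of the 23808 probe sets did in limma (0.0% called), with 510 at an unadjusted p under 0.05. At that unadjusted p there was none among the 47 on either side, against 1.74% higher and 0.574% lower of all genes. Values were higher in Wnt3a medium for 28 and lower for 19, with a median of 0.03, against 0.02 over all genes, and 45 of 47 (95.7%) lay within 0.5 of 0, against 92.9%. Both Wnt3a arrays lay above both control medium arrays in 6 genes (12.8%), against 12.5% of all genes, and below in 3 (6.4%), against 9.09%. The direction of the count depended on the arrays: without control medium replicate 2 it was 18 of 47 higher, and without Wnt3a medium replicate 1 it was 19.

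CENPA had the smallest unadjusted p of the centromere group in this comparison as well, at 0.41 (SE 0.23, unadjusted p of 0.12 in limma) and 0.26 (SE 0.23) on its second probe set. Because the Wnt3a control arrays enter both comparisons with opposite sign, the higher CENPA value here and the lower value with the SET8 shRNA are not independent. BUB3 was at -0.39 (SE 0.23) on its brighter probe set, with 12.06 and 11.95 in Wnt3a medium, against 12.33 and 12.47 in control medium, and at 0.05 on the other. HMMR, a spindle-associated receptor of hyaluronan, had the highest value, 0.87 (SE 0.61), from 7.92 and 7.34 in Wnt3a medium, against 7.81 and 5.72 in control medium. That value rests on control medium replicate 2, and was -0.18 without it. KIF14 at 0.53 (SE 0.41) rested on the same array, with 8.58 and 8.69 in Wnt3a medium, against 8.73 and 7.49, and was -0.09 without it.

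For the central regulators the intervals of the Wnt3a differences were as follows. CCNB1 was at 0.04 with a 95% interval of -0.49 to 0.56, PLK1 at -0.11 (-0.73 to 0.52), CDC2 at 0.20 (-0.42 to 0.82) and FOXM1 at 0 (-0.64 to 0.63). TPX2 was at 0 (-0.54 to 0.54) and KIF23 at 0.08 (-0.66 to 0.82). MKI67, at 0.02, had a wider interval of -1.43 to 1.46. All these intervals treat the arrays as unpaired, so a replicate gap shared by both control shRNA groups widens them. For MKI67, replicate 1 was above replicate 2 by 1.42 in Wnt3a medium and by 1.13 in control medium. AURKA was at 0.23 (SE 0.30), BUB1 at 0.23 (SE 0.35), TOP2A at 0.05 (SE 0.50), CKS1B at 0.11 (SE 0.23) and CKS2 at 0.15 (SE 0.24).

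The third comparison set SET8 shRNA in Wnt3a medium against control shRNA in control medium, so that shRNA and medium differ together. Here 12 of the 23808 probe sets passed in limma (0.0504%), or 7 of 13073 genes by their brightest probe set (0.0535%), none of them a mitosis or G2/M gene. Of the 47 genes 29 were higher and 18 lower, with a median of 0.19, against 0.02 over all genes. Without adjustment, limma gave a p under 0.05 for 5 higher genes (10.64%) and 1 lower gene (2.13%), against 6.52% and 4.43% of all genes. Without SMC2, which passed the filter only through the SET8 shRNA arrays, it was 4 of 46 higher (8.7%). Both SET8 shRNA arrays lay above both control medium arrays in 16 genes (34.0%, or 15 of 46 and 32.6% without SMC2), against 21.8% of all genes, and below in 5 (10.6%), against 18.4%. Without control medium replicate 2 it was 22 of 47 higher, with a median of -0.01, and without SET8 shRNA replicate 2 it was 24, with a median of 0.06. Without SET8 shRNA replicate 1 it was 33, with a median of 0.35. Leaving out replicate 2 of either group left 1 higher gene at an unadjusted p under 0.05, against 7 without control medium replicate 1.

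The 5 higher genes were KIF23 at 1.35 (SE 0.32, limma adjusted p of 0.16), KIF14 at 1.09 (SE 0.41), SMC2 at 0.88 (SE 0.29), TPX2 at 0.71 (SE 0.23) and SMC4 at 0.63 (SE 0.23). The SMC2 value carries the limit of its filter given above, and KIF14 was 0.47 without control medium replicate 2. The lower gene by brightest probe set was BUB3 at -0.55 (SE 0.23, limma adjusted p of 0.46), whose other probe set gave 0.40. The dimmer probe set of CKS1B was at -1.0 (SE 0.32, limma p of 0.015 unadjusted and 0.31 adjusted), and its brighter one at -0.05 (SE 0.23). CENPA was at -0.11 (SE 0.23), CCNA2 at 0.68 (SE 0.34) and NCAPG at 0.46 (SE 0.24). NEK2 was at -0.56 (SE 0.29) on its brighter probe set and at -0.12 (SE 0.28), with overlap, on the other. This comparison shares arrays with each of the others, so its values do not add independent support.

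Where a gene had several tested probe sets, these were compared as a check within the array. This was possible for 29 of the 47 genes, and in 21 of them all tested probe sets gave the same sign, by unrounded values, in the SET8 comparison, in 18 in the Wnt3a comparison and in 21 in the third. KIF23, TPX2, CENPA, NCAPG, SMC4, FOXM1 and CDC2 were among the genes with the same sign throughout in the SET8 comparison. PLK1, BUB3, BIRC5, INCENP, PTTG1, MAD2L1, UBE2C and CCNB2 were not.

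Other lists of cell cycle genes also held no call with the SET8 shRNA. Of each list, the 2 genes with the smallest unadjusted limma p in this comparison are named, so they are extremes of their list. Of 30 tested further G2/M genes, 17 were higher and 13 lower, with a median of 0.08. An unadjusted limma p under 0.05 was found for 2 higher genes (6.67%), against 3.71% of all genes, and for no lower gene. These were CKAP2, a spindle protein, at 0.92 (SE 0.26), with 8.97 and 9.38 against 8.14 and 8.36, and DEPDC1 at 0.82 (SE 0.34). The 14 tested kinetochore genes, 9 higher and 5 lower, had a median of 0.03, with SPC24 at -0.34 (SE 0.26) and SKA3 at -0.27 (SE 0.24). The 14 tested subunits and regulators of the anaphase-promoting complex had a median of -0.02, with ANAPC13 at 0.73 (SE 0.30) and ANAPC5 at -0.45 (SE 0.22). Of these only ANAPC13 had an unadjusted limma p under 0.05, which is 7.14% higher, against 3.71% of all genes. The 10 tested cohesin genes had a median of 0.09, with SGO1, the protector of centromeric cohesion, at 0.60 (SE 0.26) and WAPL at 0.24 (SE 0.24). No kinetochore or cohesin gene had an unadjusted limma p under 0.05.

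Of the regulators, the 9 tested MuvB, DREAM and B-MYB genes had a median of 0.09, with the E2F partners TFDP2 at -0.59 (SE 0.25) and TFDP1 at 0.70 (SE 0.34). Only TFDP2 had an unadjusted limma p under 0.05, which is 11.11% of this list lower, against 3.69% of all genes. Of 23 tested G1/S genes 15 were higher and 8 lower, with a median of 0.09. CCNE1, the cyclin of S phase entry, was at -0.73 (SE 0.29), with 10.97 and 11.15 against 12.09 and 11.48, and RRM2, a subunit of ribonucleotide reductase, at -0.60 (SE 0.26). Among the G1/S genes only CCNE1 had an unadjusted limma p under 0.05, which is 4.35% lower. In the Wnt3a comparison the medians of these 6 lists lay between -0.09 and 0.06.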

How the data were processed

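Total RNA from 6 HEK293 samples was labelled with Cy3 and hybridised to single-colour NimbleGen arrays. The authors deposited 1 linear intensity per probe set and array, summarised with RMA per the submitters' processing notes, with probe sets placed on hg18 per the file headers. Its further settings were not stated in the labels. The 6 deposited columns of standard errors were not used. Log2 intensities of 23808 of 45033 probe sets, above the array median in at least 2 of 6 arrays, were fitted with limma 3.58.1 (R 4.3.3), with all 3 groups in 1 fit, 3 residual degrees of freedom and Benjamini-Hochberg adjustment over all probe sets (threshold 0.05). The number of arrays limits the precision. A gene is represented by its brightest tested probe set. The fit was tested on simulated data with independent arrays, which hold no replicate gaps shared between groups. Values in every array are given for 10 listed regulators, the genes with the smallest p of each role group, and genes at an unadjusted p under 0.05. The gene set, the other lists and this rule were chosen with earlier results of these data known. Differences between replicates correlated at 0.75 between the control shRNA groups and at -0.29 between these and SET8 shRNA. In the 1 fit of all 3 groups, replicate numbers were therefore not taken as pairs. No paired fit of the 2 control shRNA groups alone was made. Alternatives were other filters, normalizations, variance models, sample sets, a replicate block and leaving out each array.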

Additional observations from a re-analysis of the deposited data

How the results depend on the processing

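No mitosis or G2/M gene passed in the fit reported above, and the counts here are of all probe sets passing in limma. For SET8 shRNA against control shRNA in Wnt3a medium (0 passing), the count was 15 with an intensity trend, 28 with only the 4 arrays of the comparison, and 0 to 28 when each array was left out. For Wnt3a against control medium (0 passing) it was 2 with a filter at the 60th percentile and 2 with an intensity trend. For SET8 shRNA in Wnt3a medium against control shRNA in control medium (12 passing) it was 0 with no filter, 52 with the 60th percentile filter, 6 after quantile normalization again, 31 with a trend and 230 with 4 arrays. There it ran from 0, without either SET8 shRNA array, to 230, without either control shRNA array in Wnt3a medium, and was 22 without control medium replicate 1 and 5 without replicate 2. The cause was not tested. With an array left out, the lone array is assumed to vary like the other groups. Leaving out an array of the group outside a comparison gives the same fit as its 4 arrays alone, so these are not separate alternatives.

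With the replicate number as a replicate block, 0 probe sets passed in each of the 3 comparisons. With the SET8 shRNA numbers crossed, a pairing chosen after seeing the data, 182, 3 and 792 passed in the order above.

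The median over the 47 genes in the third comparison ran from -0.01 to 0.35 when each array was left out. Of 912 alternative values for 66 differences of 22 named genes, 5 turned direction. A direction was counted only for a main value over 1 SE from 0. Filters, variance models, replicate blocks and arrays outside a comparison leave its differences unchanged, so many of the 912 values could not turn. For HMMR the Wnt3a difference ran from -0.18 to 1.91 and the third difference from -0.12 to 1.97 when each array was left out. For KIF14 the Wnt3a difference ran from -0.09 to 1.15. For TOP2A the third difference ran from -0.09 to 1.12, and was -0.01 without control medium replicate 2. A further 43 values within 1 SE of 0 changed sign. KIF23 passed in 2 comparisons with the crossed numbers. The planned background correction was not run for want of scanner signals in the files used, nor was a block for slide or scan, which the files used do not name.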
